A study of Mus musculus with 40 samples.

Results

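The genes described here encode the proteins of the cytosolic ribosome. They were taken from 2 tables of RNA-seq of mouse heart (the left ventricle, by the study's account), 1 for each sex, as every row whose gene name starts with Rpl or Rps followed by a digit, or is Rplp0, Rplp1, Rplp2 or Rpsa. Names with -ps (processed pseudogenes) and names starting with Rps6k (kinases) were left out. The rule took 90 rows of 17646 listed genes in the male table and the same 90 of 17223 in the female table. By name, 31 rows were small subunit proteins and 46 large subunit proteins. A further 12 were close copies of another ribosomal protein gene, and 1, Rps19bp1, encodes a protein that binds a ribosomal protein and is no part of the ribosome. All 90 passed the filter on low values in both sexes.

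The study asked what secretion of IL11, a cytokine of the IL6 family, by heart muscle cells does to the heart. All mice carried MerCreMer, a tamoxifen-activated Cre driven by the α-MHC promoter of cardiomyocytes. CM-Il11-Tg mice were heterozygous for MerCreMer and for a Rosa26-Il11 transgene that Cre switches on, and were sampled 1, 3 or 6 weeks after tamoxifen was started at 8 weeks of age. Controls (WT in the labels) were littermates with MerCreMer and without Rosa26-Il11 that were given tamoxifen, and their week of sampling is not given in the sources used here. Uninduced hearts came from CM-Il11-Tg mice without tamoxifen. The sample titles call both the controls and the uninduced hearts Baseline. Uninduced hearts differed from controls in transgene and in tamoxifen, and induced hearts differed from uninduced hearts in tamoxifen as well as in Il11 level. Each sex had 4 libraries in each group, except that male controls and the male 6-week group had 3, because 2 male libraries whose labels conflict were not grouped. The transgene was seen as labelled: Il11 was at 0 to 0.166 CPM in controls, 15.5 to 49.1 CPM in uninduced hearts and 328 to 819 CPM after tamoxifen. Values are CPM, read counts scaled to a common library size by the authors, and libraries held about 16663500 to 65333800 reads.

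A cytosolic ribosome joins a small subunit, which reads the mRNA, to a large subunit, which forms the peptide bond. Each ribosomal protein is present once in a ribosome, except the stalk proteins P1 and P2, so the genes are transcribed and translated together. Most of their mRNAs start with a 5′ terminal oligopyrimidine tract, the sequence through which mTORC1 signalling controls their translation. Growth of the heart muscle under load is known to go with more ribosomes per cell. Striated muscle also has a ribosomal protein of its own: RPL3L, a copy of RPL3 that takes its place near the peptidyl transferase centre in adult heart and skeletal muscle.

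RefSeq windows (GRCm38.p6) held the start of 57 of the 77 subunit genes. A tract of at least 7 letters C or T, beginning with C within 10 bases of the annotated start on the gene's own strand, was present in 27 of the 57 (47.4%). It was present in 15.1% of 11603 tested genes with a window, and in 7 of 69 genes for mitochondrial ribosomal proteins (10.1%). Annotated starts can lie some bases away from the true start of the mRNA, so a missing tract says only that no run met this rule. The following lines give 40 bases before to 25 bases from the start for members described below, with the tract in capitals. By this rule Rps6, Rps12 and Rpl22l1 show a tract, and Rpl12 and Rpl3l show none. Rpl12 does have a run of C and T just after its annotated start, but that run begins with T.
Rps6 (chr4:86857343-86857407, minus strand): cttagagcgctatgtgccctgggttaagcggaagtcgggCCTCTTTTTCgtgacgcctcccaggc
Rps12 (chr10:23787185-23787249, minus strand): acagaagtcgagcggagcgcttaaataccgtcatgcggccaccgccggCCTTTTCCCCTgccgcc
Rpl22l1 (chr3:28805468-28805532, plus strand): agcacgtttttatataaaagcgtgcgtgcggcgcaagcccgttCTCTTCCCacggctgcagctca
Rpl12 (chr2:32961672-32961736, plus strand): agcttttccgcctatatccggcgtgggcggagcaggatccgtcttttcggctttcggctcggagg
Rpl3l (chr17:24727786-24727850, plus strand): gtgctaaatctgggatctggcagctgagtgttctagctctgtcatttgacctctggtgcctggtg

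Summed over the 90 rows, ribosomal protein genes took a larger share of the library after induction than in controls. Male controls had shares of 0.869%, 0.988% and 1.06% of summed CPM, and the 4 uninduced libraries ranged from 1.17% to 1.498%. Male hearts at 1 week ranged from 1.80% to 2.23%, at 3 weeks from 1.33% to 1.65% and at 6 weeks from 1.35% to 1.93%. No male transgenic library, uninduced or induced, overlapped the controls. The male group means were 0.973% ± 0.0975 (SD, n = 3) in controls and 1.99% ± 0.205 (SD, n = 4) at 1 week. Female controls ranged from 1.05% to 1.302% and uninduced hearts from 1.25% to 1.85%. Female hearts ranged from 1.53% to 1.86% at 1 week, 1.87% to 2.09% at 3 weeks and 1.599% to 2.20% at 6 weeks. Every induced female library lay above every female control, while the uninduced libraries overlapped the controls. The share is also moved by its denominator: mt- genes (transcribed from mitochondrial DNA) took 25.9% to 31.7% of summed CPM in controls and 7.70% to 26.5% in induced libraries. With the mt- genes left out, the mean share was 1.34% in male controls and 2.37% at 1 week. In females it was 1.73% in controls, 2.14% at 1 week and 2.48% at 6 weeks. Not divided by summed CPM, the members' CPM summed to 12505 to 15484 in female controls. That range overlapped those of females at 1 week, 14583 to 16736, and at 6 weeks, 15074 to 19647. The female 3-week and the male induced libraries did not overlap their controls in this sum.

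**Figure D1:**
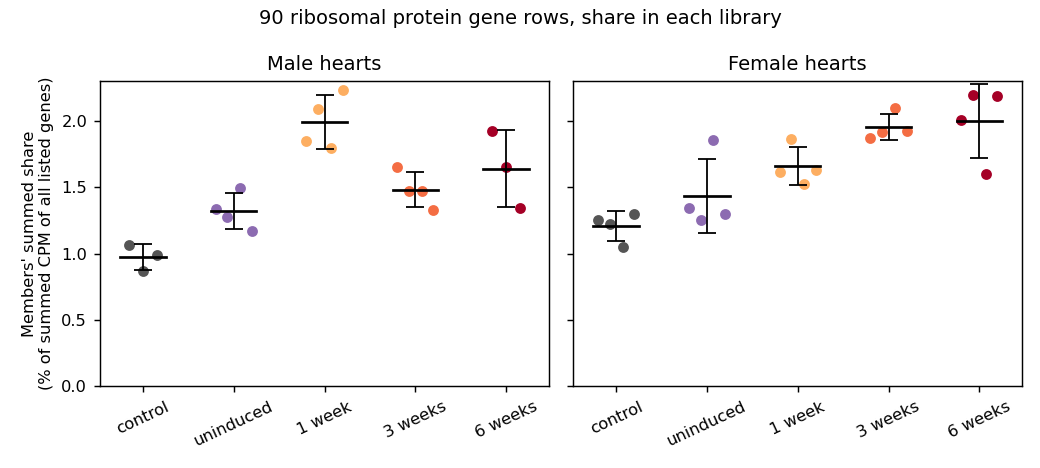
Summed share of the 90 ribosomal protein gene rows in each library, as a percent of the summed CPM of all listed genes, by group and sex. Points are libraries, and bars are the mean and SD. All induced libraries lie above all controls of their sex, with the highest male value of 2.23% at 1 week and the highest female value of 2.20% at 6 weeks.

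How many members rose in induced hearts differed by week and sex, and the median rise was modest. Each gene was compared with limma on log2(CPM + 0.5), and called at an adjusted p under 0.05 over all genes tested. In males at 1 week, 73 of the 90 members were higher and 1 was lower than in controls, where 18.9% of all genes tested were higher and 14.6% lower. At 3 weeks 29 members were higher and 2 lower, against 13.2% and 8.1% of all genes. At 6 weeks 52 were higher and 1 lower, against 16.2% and 10.9% of all genes. The median male member changed by 0.65, 0.35 and 0.45 on the log2 scale at 1, 3 and 6 weeks, beside a median over all genes between -0.01 and 0.02. A median of 0.65 is a level 1.57-fold that of controls.

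In females the members called at 1 week were few. At that time 7 members were higher and 2 lower, against 15.3% and 13.1% of all genes, so the share of members called higher was below that of all genes. That count depended on the scaling: scaled by the total of all listed genes 75 members were higher, beside 41.3% of all genes, and scaled without members and mt- genes 48, beside 28.1%. At 3 weeks 54 were higher and 2 lower, against 16.8% and 14.5% of all genes. At 6 weeks 51 were higher and 2 lower, against 21.7% and 21% of all genes. The female medians were 0.11, 0.35 and 0.32 on the log2 scale. The tables of the sexes were scaled separately, so the 73 male and 7 female members at 1 week stand side by side and their difference was not tested. Male controls also held a lower share than female controls, and male control replicate 3 had the lowest share of all libraries, 0.869%.

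In the uninduced hearts 0 members passed the test with limma in either sex. Of all genes 0.597% did in males and 2.87% in females. At an unadjusted p under 0.05 there were 36 members in males and 2 in females. DESeq2 called 3 members higher in uninduced males and 0 in uninduced females, and edgeR called 0 in both. The median uninduced change was 0.27 in males, where 82 of 90 members were above 0, and 0.08 in females. These mice expressed Il11 at a low level without tamoxifen. The controls had been given tamoxifen, and the parts of transgene and tamoxifen in these changes were not tested. Female uninduced replicate 3 had the highest Il11 of its group, 49.1 CPM, and the highest members' share, 1.85%. In uninduced males these fell in different libraries. Replicate 2 had the highest Il11, 23.3 CPM, with a share of 1.27%. Replicate 3 had the highest share, 1.498%, with 20.1 CPM of Il11. At 6 weeks against uninduced hearts, 25 male members were higher and 1 lower (13% and 7.4% of all genes). In females 22 were higher and 1 lower (13.7% and 9.08% of all genes). Between 6 weeks and 1 week limma called 0 members in either sex, with 23 at an unadjusted p under 0.05 in each sex and 0 called by edgeR or DESeq2. Of all genes 0.165% were called in males and 1.03% in females.

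**Figure D2:**
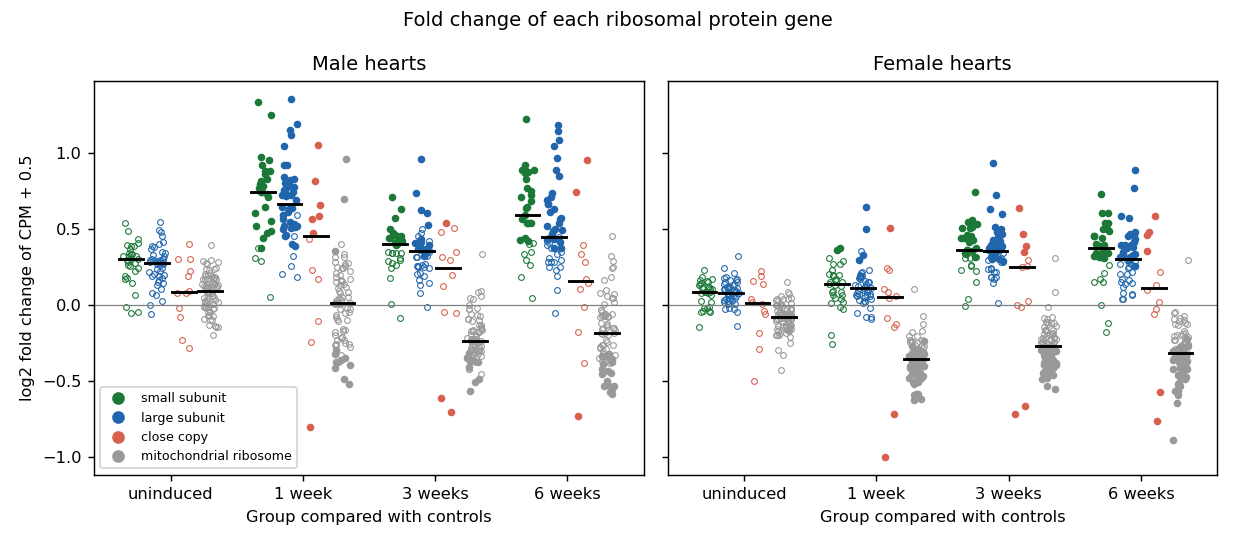
Fold change against controls (log2 of CPM + 0.5) of each small subunit, large subunit and close-copy member and, for comparison, of the 77 genes for mitochondrial ribosomal proteins, by group and sex. Filled points passed the test at an adjusted p under 0.05, open points did not, and black bars are medians. Subunit members lie mostly above 0 after induction, with Rpl3l and Rps4l apart from them below 0.

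Both subunits took part. In males at 1 week 27 of 31 small subunit and 40 of 46 large subunit members were higher, with medians of 0.74 and 0.67 on the log2 scale. In females at 6 weeks 23 of 31 small subunit and 24 of 46 large subunit members were higher, with medians of 0.38 and 0.31. None of the 77 subunit members was called lower at any week in either sex. Members with a pyrimidine tract found near the annotated start and members without one had like medians. These were 0.74 and 0.68 in males at 1 week and 0.34 and 0.32 in females at 6 weeks. A tract was found in 27 of 57 subunit members, though most such mRNAs are known to have one. The group without a tract can hold tracts that were not found, so like medians do not tell whether the tract matters.

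There were 7 members higher at every week in both sexes. The 7 members were Rpl3, Rpl10, Rpl12, Rpl39 and the copy Rpl22l1 of the large subunit, and Rps12 and Rps20 of the small subunit. Rpl3 encodes a protein of the peptidyl transferase centre, and Rpl10 a protein that joins the large subunit late in its assembly. Rpl12 lies at the base of the stalk where elongation factors bind, and Rpl39 lines the tunnel through which the new protein leaves.

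Rpl3 (chr15:79961825-79976069 in GRCm39) had the largest rise among members at each week in females and at 1 and 3 weeks in males. Male controls had 92.5, 75.2 and 104 CPM, and uninduced males 136, 125, 127 and 106.1. Male hearts had 259, 249, 208 and 210 CPM at 1 week, 173, 201, 175 and 155 at 3 weeks, and 214, 215 and 173 at 6 weeks. All induced male libraries lay above all male controls. The log2 fold change of Rpl3 was 1.35 ± 0.13 (SE) at 1 week (adjusted p = 2.8e-07), 0.96 ± 0.13 at 3 weeks and 1.15 ± 0.14 at 6 weeks. Female controls had 147, 146, 111 and 143 CPM, and uninduced females 137, 140, 249 and 141. Female hearts had 218, 230, 216 and 190 CPM at 1 week, 242, 253, 282 and 265 at 3 weeks, and 252, 282, 233 and 243 at 6 weeks. Here too every induced library was above every control, and 1 uninduced library, replicate 3, reached the induced range. The female log2 fold changes of Rpl3 were 0.65 ± 0.15, 0.93 ± 0.15 and 0.89 ± 0.15 (adjusted p = 0.0023, 5.3e-05 and 6.9e-05).

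Rps12, a small subunit protein, rose to a like degree in males. Its controls had 117, 88.9 and 102 CPM, the 1-week hearts 228, 274, 227 and 312, and the 6-week hearts 238, 218 and 261. The log2 fold change of Rps12 was 1.33 ± 0.13 at 1 week and 1.22 ± 0.14 at 6 weeks in males, where it was the largest of all members. In females Rps12 had 155, 141, 118 and 156 CPM in controls and 248, 248, 191 and 260 at 6 weeks. No 6-week library overlapped the controls in either sex, and the female change was 0.73 ± 0.13 (adjusted p = 0.00012).

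Rpl12 had 109, 85 and 96.9 CPM in male controls and 202, 184 and 285 CPM at 6 weeks, a log2 change of 1.18 ± 0.15. The highest of these libraries, male 6-week replicate 4, was also the male library with the highest Rplp1, 724 CPM, and a low Malat1. In females Rpl12 had 152, 137, 124 and 154 CPM in controls and 221, 224, 178 and 231 CPM at 6 weeks, a change of 0.59 ± 0.12. Rpl39 changed by 1.15 ± 0.12, 0.63 ± 0.12 and 1.09 ± 0.12 on the log2 scale in males at 1, 3 and 6 weeks, and by 0.50 ± 0.11, 0.73 ± 0.11 and 0.77 ± 0.11 in females. Rps20 changed by 1.25 ± 0.16, 0.57 ± 0.16 and 0.87 ± 0.17 in males, and by 0.36 ± 0.11, 0.56 ± 0.11 and 0.60 ± 0.11 in females. All of these changes of Rpl12, Rpl39 and Rps20 passed the test.

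Beside these, the 5 largest male changes held Rpl41 at 1 week (1.19 on the log2 scale), Rps16 at 3 weeks (0.63) and Rplp1 at 6 weeks (1.04). In females they held Rpl36a at 3 weeks (0.63) and Rps3 at 6 weeks (0.60). In the uninduced males the 5 largest were Rpl41 (0.55), Rps12 (0.54), Rpl12 (0.49), Rps20 (0.49) and Rpl37a (0.48), none of which passed the test. In uninduced females they were Rpl13a (0.32), Rps19bp1 (0.26), Rpl3 (0.24), Rps18 (0.23) and Rpl36al (0.22), again none called.

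The muscle copy Rpl3l (chr17:24946751-24955119 in GRCm39) went the other way from Rpl3. Male controls had 256, 236 and 174 CPM of Rpl3l and uninduced males 177, 209, 219 and 229. Male hearts had 73.6, 159, 143 and 149 CPM at 1 week, 175, 117, 147 and 140 at 3 weeks, and 160, 127 and 114 at 6 weeks. The 1-week and 6-week libraries lay below all controls, and 1 of the 3-week libraries reached the lowest control. At 1, 3 and 6 weeks male Rpl3l fell by 0.80 ± 0.21, 0.61 ± 0.21 and 0.73 ± 0.23 on the log2 scale (adjusted p = 0.0075, 0.049 and 0.024). Scaled by the total of all listed genes the male changes of Rpl3l stayed below 0 and none passed (adjusted p = 0.13, 0.29 and 0.13). At 6 weeks the call was also lost without replicate 4 (adjusted p = 0.083).

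In females Rpl3l had 224, 206, 173 and 211 CPM in controls and 198, 176, 136 and 216 in uninduced hearts. It had 100, 109, 97.9 and 97.9 CPM at 1 week, 122, 136, 113 and 122 at 3 weeks, and 137, 104, 108 and 132 at 6 weeks. No induced female library overlapped the controls. Rpl3l fell by 1.00 ± 0.12, 0.72 ± 0.12 and 0.76 ± 0.12 on the log2 scale (adjusted p = 3.4e-06, 0.00016 and 5.9e-05), and these calls held under each scaling tried.

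The ratio of Rpl3l to Rpl3 within a library does not depend on how libraries are scaled. Male controls had 2.53 ± 0.766 (SD, n = 3) CPM of Rpl3l for each CPM of Rpl3. The ratio was 1.71 ± 0.352 in uninduced males (n = 4), 0.581 ± 0.200 at 1 week (n = 4), 0.836 ± 0.183 at 3 weeks (n = 4) and 0.667 ± 0.0792 at 6 weeks (n = 3). In females it was 1.49 ± 0.0652 in controls, 1.19 ± 0.447 in uninduced hearts, and 0.476 ± 0.0278, 0.476 ± 0.0581 and 0.479 ± 0.0838 at 1, 3 and 6 weeks (n = 4 each). As deposited, every control was listed with more CPM of Rpl3l than of Rpl3, and every induced library but 1 male at 3 weeks, at 1.02, with less. Among the uninduced libraries, 1 had less Rpl3l than Rpl3: female replicate 3, at 0.545, close to the female induced groups. The canonical transcripts are of like length, 1420 bases for Rpl3l and 1355 bases for Rpl3. Since the counting of reads that also match pseudogenes is not given, which of the pair has more mRNA is uncertain, and the comparison is of the ratio between groups.

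The mean log2 ratio differed from controls by -2.16, -1.58 and -1.88 in males and by -1.65, -1.65 and -1.65 in females at 1, 3 and 6 weeks. No library of these groups overlapped the controls. The two-sided exact permutation p was 0.029 for each of these comparisons but male 6 weeks, where 3 libraries against 3 cannot go below 0.1. These are the smallest p-values that the group sizes allow. Adjusted over the 10 comparisons made, they were 0.057 and, for male 6 weeks, 0.17, so none passed after correction. For uninduced hearts the difference was -0.54 in males (exact permutation p = 0.17) and -0.43 in females (exact permutation p = 0.2). Between 6 weeks and 1 week the exact permutation p was 0.74 in males and 1 in females. The longest stretch that the transcripts of Rpl3l and Rpl3 share is 22 bases.

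**Figure D3:**
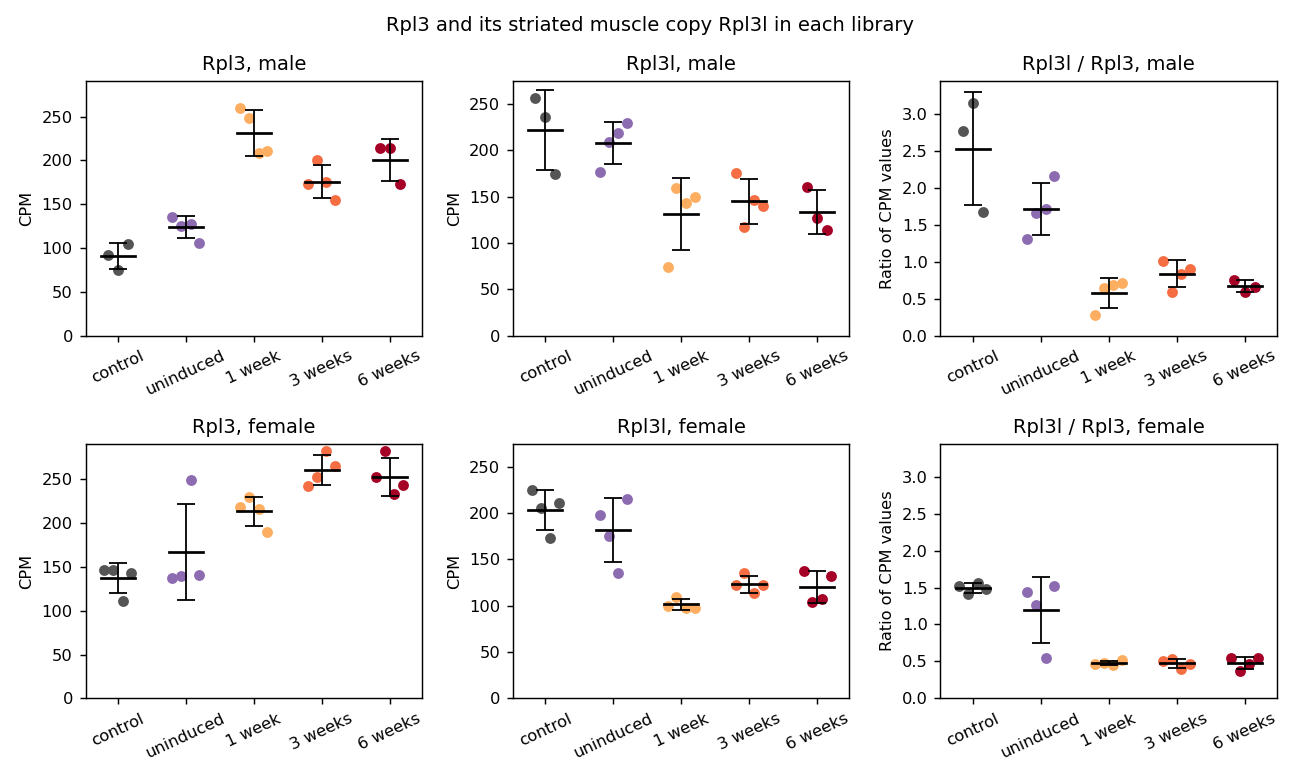
CPM of Rpl3 (left) and Rpl3l (middle) and the ratio of Rpl3l to Rpl3 (right) in each library, for males (top) and females (bottom). Points are libraries, and bars are the mean and SD. Rpl3 is higher and Rpl3l lower after induction, and the ratio falls from a mean of 2.53 in male and 1.49 in female controls to below 0.84 in each induced group.

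Among the other copies, Rpl22l1, a copy of Rpl22, rose and Rps4l, a copy of Rps4x, fell. Rpl22l1 had 8.99, 6.44 and 6.43 CPM in male controls and 13.3, 14.8, 13.9 and 20.9 CPM at 1 week, a log2 change of 1.05 ± 0.19 (adjusted p = 0.00033). In females Rpl22l1 had 12.8, 10.7, 10.8 and 12.2 CPM in controls and 17.5, 15.8, 23.5 and 17.3 CPM at 3 weeks, a change of 0.64 ± 0.16 (adjusted p = 0.0054). Its ratio to Rpl22 was 0.0913 ± 0.0126 (SD, n = 3) in male controls and 0.132 ± 0.0389 (n = 4) at 1 week, and 0.116 ± 0.00855 (n = 4) in female controls and 0.157 ± 0.0220 (n = 4) at 1 week.

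Rps4l had 27.2, 20.1, 15.7 and 20.8 CPM in female controls and 12.9, 12.8, 11.5 and 12.1 CPM at 1 week. Its log2 change in females was -0.72 ± 0.15, -0.66 ± 0.15 and -0.57 ± 0.15 at 1, 3 and 6 weeks (adjusted p = 0.0013, 0.0024 and 0.0057). In uninduced females Rps4l had 11.8, 12.7, 16.5 and 17.2 CPM, 3 of 4 within the range of the induced groups, a change of -0.50 ± 0.15 that did not pass (adjusted p = 0.092). In males Rps4l fell at 3 weeks, by 0.70 ± 0.14 (adjusted p = 0.0012), and was at -0.24 ± 0.14 and -0.38 ± 0.15 at 1 and 6 weeks. Scaled by the total of all listed genes, the male 1-week value of Rps4l turned to 0.10, its male 3-week fall still passed (adjusted p = 0.034), and its female changes no longer did (adjusted p = 0.063, 0.12 and 0.36).

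The copies Rpl7l1, a protein of the nucleolus related to Rpl7, and Rps27l, a p53 target related to Rps27, were called at no week in either sex. Rpl7l1 stayed between 30.0 and 38.7 CPM in all male libraries and Rps27l between 20.3 and 32.6. Rpl36al, of which at most a few CPM were listed, was higher in males at 1 week (0.57 ± 0.19, adjusted p = 0.026) and was called at no week in females (-0.14 at 1 week). Of the 12 copies, 6 were higher and 1 lower in males at 1 week, and 4 were higher and 2 lower in females at 6 weeks. Over all genes 18.9% were higher and 14.6% lower in the male comparison, and 21.7% and 21% in the female comparison. Several of the higher copies cannot be told from the gene they copy. Rps27rt shares a stretch of 345 bases with Rps27, Rpl6l 354 with Rpl6, Rps3a2 317 with Rps3a1, Rpl37rt 248 with Rpl37 and Rps3a3 215 with Rps3a1, so a read from within these stretches could come from either gene. The values of these copies and of Rps27, Rpl6, Rps3a1 and Rpl37 are uncertain for that reason. Rpl32l, near 1 CPM, shares 94 bases with Rpl32, and neither Rpl32l nor Rps19bp1 was called at any week.

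Members known for other roles followed the rest to different degrees. Rplp0, Rplp1 and Rplp2 form the stalk that recruits translation factors, and Rplp0 is often used as a reference gene. Rplp0 had 485, 440 and 409 CPM in male controls, 625, 692, 616 and 581 at 1 week and 618, 536 and 699 at 6 weeks, with no overlap. The log2 change of Rplp0 was 0.50 ± 0.11 at 1 week (adjusted p = 0.0022), 0.16 ± 0.11 at 3 weeks (adjusted p = 0.34) and 0.47 ± 0.12 at 6 weeks (adjusted p = 0.007) in males. In females Rplp0 was not called at any week, at 0.09 ± 0.12, 0.18 ± 0.12 and 0.25 ± 0.12. Rplp1 changed by 0.92 ± 0.19 in males at 1 week and 0.39 ± 0.12 in females at 6 weeks, both called. Rplp2 was called only in males at 1 week, at 0.56 ± 0.13.

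Rpsa, which is also known as the laminin receptor precursor, was higher at each week in males (0.82, 0.45 and 0.83 on the log2 scale) and at 3 and 6 weeks in females (0.36 and 0.34). Rps6, the substrate of the S6 kinases, had 211, 182 and 178 CPM in male controls and 300, 341, 291 and 344 CPM at 1 week, a change of 0.74 ± 0.14 (adjusted p = 0.00056). In females Rps6 had 253, 243, 199 and 256 CPM in controls and 318, 354, 269 and 352 CPM at 6 weeks, a change of 0.44 ± 0.12 (adjusted p = 0.0059). Rpl5 and Rpl11, which bind Mdm2 when ribosome assembly fails, were higher in males at 1 week (0.52 ± 0.19 and 0.74 ± 0.20) and in females at 3 weeks (0.48 ± 0.13 and 0.40 ± 0.13). At 6 weeks Rpl5 was called in females (0.46 ± 0.13) and Rpl11 in neither sex (0.23 in males and 0.32 in females).

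Some members did not move with the rest. Rps2 had the highest mean CPM of all members in both sexes, followed by Rplp0, Rpsa, Rpl4 and Rplp1. Rps2 had 593, 505 and 486 CPM in male controls and 574, 717, 645 and 971 at 1 week, with overlap, a log2 change of 0.44 ± 0.16 (adjusted p = 0.037). In females Rps2 had 640, 661, 569 and 678 CPM in controls, 529, 609, 510 and 576 at 1 week and 672, 637, 521 and 734 at 6 weeks, with overlap at both times. Its female changes were -0.20, -0.01 and 0.00 on the log2 scale and none passed, but scaled by the total of all listed genes the 3-week value of Rps2 turned to 0.35 and was called. The lowest changes in males also held Rps10 at 3 weeks (-0.09) and Rpl24 at 6 weeks (-0.05). In females they held Rps10 at 6 weeks (-0.12), and in uninduced hearts of both sexes Rpl31 (-0.06 in males and -0.14 in females) and Rpl32l (-0.28 and -0.29). A single library stood apart for Rpl31: male 1-week replicate 4 had 41.3 CPM where the other 1-week males had 163, 197 and 155. It was also the library with the smallest share of mt- genes, 7.70%. There were 10 members called at no week in either sex, among them Rpl9, Rpl24, Rpl31, Rps10, Rps25, Rpl7l1, Rps27l, Rpl32l and Rps19bp1. The share of all genes called at no week is not given here.

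The members also differed widely in level. Per kilobase of the canonical transcript, Rplp1 had the highest mean, 620 CPM in males and 700 in females, and Rps2 followed with 559 and 575. Among subunit members Rps10 was lowest, at 5.55 CPM per kilobase in males and 5.37 in females, although a ribosome holds 1 copy of each. Pseudogenes named after members (164 rows in males and 162 in females) held 0.239% to 0.616% of summed CPM. Of those tested, 87 of 160 were higher in males at 1 week and 57 of 161 in females at 6 weeks, and 0 were lower. Over all genes 18.9% and 21.7% were higher in these comparisons. How reads that match a gene and its pseudogenes were counted is not given in the sources used here, so the levels compared between members are uncertain, Rps10 among them.

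Across the 77 subunit members the log2 changes in males and females, which share no library, had a Spearman's rho of 0.60, 0.80 and 0.54 and a Pearson's r of 0.67, 0.83 and 0.61 at the 3 times in turn. Genes are not independent replicates and share library and depth, so this is a description. At 6 weeks 40 members were higher in both sexes, which is 40 of the 52 in males and 40 of the 51 in females. Of all genes tested in both sexes and higher in males at 6 weeks, 78.9% were also higher in females, and of those higher in females 59.7% in males. At 3 weeks 28 were higher in both, of 29 in males and 54 in females, where over all genes the shares were 84.2% and 66.7%.

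**Figure D4:**
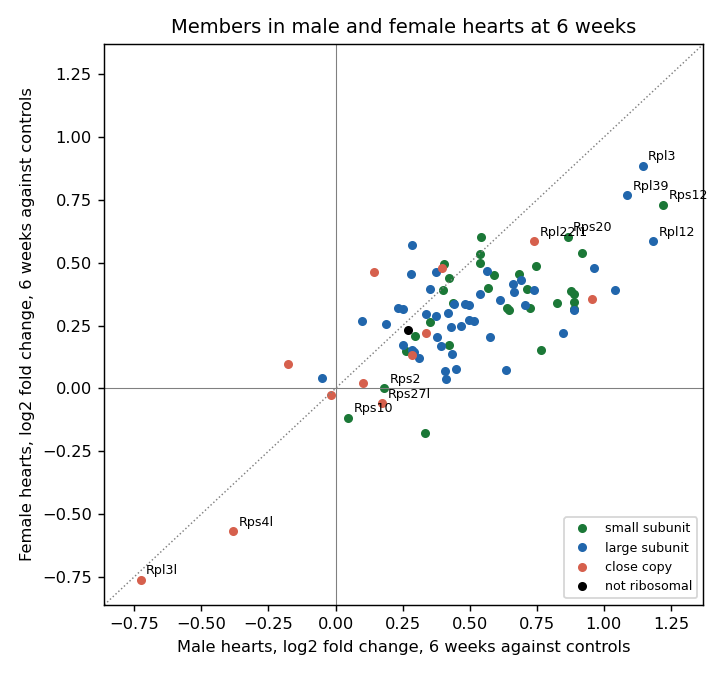
Log2 fold change of each of the 90 members at 6 weeks against controls in males (horizontal) and females (vertical). Each point is 1 gene coloured by class, and the dotted line marks equal change. Rpl3, Rps12, Rpl12 and Rpl39 lie at the upper right, and Rpl3l and Rps4l at the lower left.

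Genes that work with the ribosome moved less evenly. Fau and Rack1, which encode small subunit components without an Rps name, were higher in males at each week and in females at 3 and 6 weeks. Fau changed by 0.78 and Rack1 by 0.74 on the log2 scale in males at 6 weeks. Eef1a1, the general form of the elongation factor that delivers aminoacyl-tRNA, was higher by 1.37 in males at 1 week and 1.23 in females at 6 weeks (adjusted p = 3.01e-07 and 6.4e-08). Eef1a2, the form that adult muscle uses, was lower by the same test in females at each week (-0.43, -0.37 and -0.39) and in males at 1 and 3 weeks (-0.31 and -0.33), but scaled by the total of all listed genes no change of Eef1a2 passed and its values lay between -0.08 and 0.04. Of 9 elongation factor genes, 3 were higher and 1 lower in males at 1 week and in females at 6 weeks, beside 18.9% and 21.7% of all genes higher. With the other scaling 8 were higher and 0 lower in both, beside 37.9% and 49.3% of all genes higher.

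Of 36 initiation factor genes, 9 were higher and 1 lower in males at 1 week, and 7 were higher and 2 lower in females at 6 weeks. Of all genes 18.9% and 21.7% were higher in these comparisons. Eif6, which keeps the subunits apart during assembly, was higher in both of these comparisons (0.75 and 0.40 on the log2 scale). Of 50 genes for ribosome assembly, 10 were higher and 2 lower in males at 1 week, and 15 were higher and 3 lower in females at 6 weeks, against the same 18.9% and 21.7% of all genes, so the male share was near that background. Nop58, a box C/D snoRNP protein, was higher by 0.58, 0.43 and 0.75 in females at the 3 times and was called at no week in males (0.41, 0.17 and -0.01). Npm1, a nucleolar chaperone, was higher in males at 1 week (0.63) and not at 3 or 6 weeks (0.33 and 0.09), and higher in females at 3 and 6 weeks (0.49 and 0.54) and not at 1 week (0.31). Of 19 regulators of ribosome synthesis, Myc was higher by 2.66, 1.85 and 2.18 on the log2 scale in males and by 1.51, 1.41 and 1.603 in females. In the same list 6 genes were lower in males at 1 week, among them Mtor (-0.55) and Rptor (-0.58), and 7 in females at 6 weeks. The shares of all genes lower were 14.6% and 21%. Scaled by the total of all listed genes, 1 regulator was lower in each of these comparisons, and neither Mtor nor Rptor was called. Under that scaling 33 of the assembly genes and 22 of the initiation factors were higher in males at 1 week, and 41 and 30 in females at 6 weeks, with 0 lower. The same scaling gave 37.9% and 49.3% of all genes higher in these comparisons, so much of these counts goes with a shift of all genes. The rise of Myc passed under both.

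The 77 genes for mitochondrial ribosomal proteins, pseudogenes left out, were also compared. In females 55, 35 and 47 of them were lower at 1, 3 and 6 weeks and 0 were higher, and in males 10, 11 and 18 were lower with 3, 0 and 0 higher. Of all genes 13.1%, 14.5% and 21% were lower in females and 14.6%, 8.1% and 10.9% in males. The male 1-week count of 10 lower was thus not above that background. The counts of mitochondrial ribosomal protein genes depend on the scaling. Scaled by the total of all listed genes, which moved the median of all genes by 0.17 to 0.35 on the log2 scale, 3, 0 and 2 were lower in females and 2, 3 and 10 higher. In males 34, 1 and 2 were then higher and 0 lower. The cytosolic members were higher under that scaling too, in larger numbers: 83, 73 and 61 in males, beside 37.9%, 22.9% and 21.3% of all genes, and 75, 87 and 84 in females, beside 41.3%, 41.9% and 49.3%. The members' median less the median of all genes was 0.64, 0.35 and 0.45 in males with the authors' scaling and 0.68, 0.38 and 0.47 by the total of all listed genes. In females these were 0.13, 0.36 and 0.34, and 0.17, 0.40 and 0.38.

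Markers of other cell types differed between the groups as well. In bulk tissue fewer cells of a type and less RNA per cell cannot be told apart. Summed fibroblast markers were at 715 to 1147 CPM in controls and 4665 to 12145 CPM in induced libraries, and 7 of 7 were higher in both sexes at 1 week. All 6 macrophage markers were higher at each week in both sexes, with sums of 169 to 300 CPM in controls and 678 to 1103 CPM after induction. These fibroblast and macrophage counts were the same when scaled by the total of all listed genes. Of the endothelial markers 4 of 6 were lower at 1 week in each sex, and 1 of 6 under that other scaling. Cardiomyocyte markers summed to 50861 to 77887 CPM in controls and 42924 to 68747 CPM in induced libraries, with 3 of 10 lower and 0 higher at 1 week in each sex. Under the other scaling 1 was lower and 1 higher in males, and 1 lower and 0 higher in females. Red blood cell markers were higher for 5 of 5 in females at 1 week and for 0 of 5 in males at any week, with a sum of 15960 CPM in male 6-week replicate 4. Atrial markers summed to 222 to 871 CPM in male 1-week libraries and 16.0 to 61.6 in male controls, and to 86.3 to 321 CPM in female 1-week libraries and 37.4 to 76.6 in female controls. Of the 4 atrial markers, 2 were tested in males, and 1 of these was higher at 1 week. In females 3 were tested, and 1 was higher at 1 week. The highest sum, 1546 CPM, was in 1 female 6-week library, replicate 2. For the atrial gene Myl7 no value above 0 CPM was found in males. A gene not listed in the male table would give the same, so this is no measured absence. In females Myl7 was at 52.3 CPM in 1-week replicate 2 and 346 CPM in 6-week replicate 2. The atrial markers included Nppa. The study names Nppa as a cardiomyocyte stress marker and reports it as upregulated in induced hearts. The summed atrial markers are therefore not specific to atrial tissue. Whether atrial tissue was present in the samples was not tested. Neutrophil and lymphocyte markers summed to at most 33.9 CPM in any library. The part of these cells in the members' changes was not tested.

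Some libraries stood apart. Malat1, a nuclear RNA, was under 400 CPM in male 6-week replicate 4, in female uninduced replicate 4, in female 1-week replicate 2 and in female 6-week replicates 2, 3 and 4. Male 6-week replicate 4 had the lowest Rpl11 of all male libraries, 85.2 CPM, and the highest Rps27, 330 CPM. Without the libraries low in Malat1, an alternative chosen after seeing the data, 69 members were higher and 0 lower in males at 6 weeks, and 17 were higher and 1 lower in females at 6 weeks, where 1 library then remained and was assumed to vary like the other groups. The same holds for the 1 member called in females at 6 weeks against uninduced hearts. In females at 1 week 3 were then higher.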

How the data were processed

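Poly(A) RNA of left ventricle (heart in the labels) was sequenced from 38 grouped libraries (2 further male libraries, whose columns were not used, have conflicting labels). The authors aligned reads to GRCm39 with STAR, counted them per gene with featureCounts, and deposited 1 table for each sex. The deposited values, treated here as a signal, are CPM divided by a factor for each library: all were whole reads within a tolerance of 0.001 once that factor was found, with column sums between 817395 and 1196280. Libraries held about 16663500 to 65333800 recovered reads.

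limma 3.58.1 (R 4.3.3) with a mean-variance trend was fitted to log2(CPM + 0.5) in all grouped libraries of a sex, for genes of at least 0.5 CPM in at least 3 libraries (16931 male and 16956 female genes), with Benjamini-Hochberg adjustment. A gene was called at an adjusted p under 0.05 with no minimum fold. The Rpl3l to Rpl3 ratio was tested by exact permutation (SciPy 1.17.1). edgeR 4.0.16 and DESeq2 1.42.0 on recovered reads (100% of values whole) were alternatives, as were other scalings, filters and pseudocounts, fits of 2 groups, a replicate block and leaving out each library. The fit was tested on simulated data. Tables of the sexes were scaled separately, so no test was made between them. The study describes its replicates as mice. All 54 replicate pairs differed by more than sampling noise (lowest chi-square per gene 6.81).

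Genes named in the text are the close copies with the genes they copy, the 5 members with the highest and lowest change in each comparison with controls, the 5 of highest mean, a short list of members with known further roles, and up to 5 called genes of each other list. The 7 members higher at every week and those called at no week were named after their values were seen. Some genes that this rule takes are not reported here. Members and lists were chosen with earlier results of these data known. Positions and transcript lengths are from GENCODE M39 (GRCm39) and start windows from RefSeq (GRCm38.p6). Cell types are named from marker lists.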

Additional observations from a re-analysis of the deposited data

Results flagged for a closer look

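In groups of 4 libraries, 128 sets of values were examined for 1 value far from the other 3, and chance flags about 1 in 20 sets. The sets share libraries and the members' share contains the genes, so they are not independent. The count therefore cannot be weighed against that rate. There were 13 such values, 5 of them in the female uninduced group. In that group the highest value stood apart for the members' share (1.85%), Rpl3 (249 CPM), Rps12 (213 CPM), Rpl12 (203 CPM) and Rps20 (149 CPM), in each case in replicate 3, the library with 49.1 CPM of Il11. In uninduced males the highest value stood apart for Rps4l (19.7 CPM) and Rps2 (782 CPM), both in replicate 3, and the lowest for Rplp1 (232 CPM), in replicate 4. The ratio of Rpl3l to Rpl3 in male 1-week replicate 1, 0.284, was far below the others, and this library had the lowest Rpl3l of all, 73.6 CPM. The lowest Rpl3 of the female controls (111 CPM, replicate 3) stood apart, as did the lowest Rpl22 at 1 week (98.8 CPM) and 6 weeks (107 CPM) in females and the highest Rps4l at 3 weeks in females (16.99 CPM).

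Rps2 at 1 week was above the control mean in every male library and below it in every female library. The log2 changes were 0.44 in males and -0.20 in females, 0.63 apart, and this difference was not tested.

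The 2 male libraries that were not grouped had 511 and 0.597 CPM of Il11, where male controls had at most 0.147 CPM. Their shares of ribosomal protein genes were 1.27% and 1.10%.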

How the results depend on the processing

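Of 11656 recomputed changes of 47 named members, 10868 kept their direction and their side of the threshold, and 3 reversed. Of those kept, 6718 came from leaving out 1 library, often of a group not compared. The scaling mattered more: 249 of 376 changes were kept when scaled by the total of all listed genes. When scaled without members and mt- genes 287 of 376 were kept. Scaled by the total of all listed genes, the female changes of Rplp2 at 1 week, Rps2 at 3 weeks and Rps27l at 6 weeks became 0.27, 0.35 and 0.33, all called. Under that scaling members called (higher and lower together) were 74 in males at 3 weeks, 5 in uninduced males, 76, 88 and 85 in females at 1, 3 and 6 weeks, and 74 in females at 6 weeks against uninduced hearts. Scaled without members and mt- genes these were 56 in males at 3 weeks, 3 in uninduced males, 50 in females at 1 week and 53 in females at 6 weeks against uninduced hearts. With only the 2 groups in the fit, 50 and 33 were called in males at 3 and 6 weeks, 16 in males at 6 weeks against uninduced hearts, 15 in females at 1 week and 5 in females at 6 weeks against uninduced hearts. With a log2 change of at least 1 required, 8 and 5 were called in males at 1 and 6 weeks and 0 in males at 3 weeks, in males at 6 weeks against uninduced hearts and in each female comparison. DESeq2 called 3 in uninduced males. With edgeR, males had 74, 25 and 53 members higher at the 3 times and females 6, 52 and 51. Without the libraries low in Malat1, 54 were called in males at 3 weeks, 1 in uninduced males, 5 and 18 in females at 1 and 6 weeks and 1 in females at 6 weeks against uninduced hearts, where the 1 female 6-week library left is assumed to vary like the other groups. The cause of these differences was not tested.

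Leaving out 1 library at a time gave 60 to 78, 9 to 54 and 32 to 69 members called in males at 1, 3 and 6 weeks, and 4 to 10, 32 to 63 and 30 to 60 in females. It gave 0 to 1 in uninduced males and in uninduced females, 0 to 0 in males and 0 to 1 in females at 6 weeks against 1 week, and 15 to 29 in males and 7 to 44 in females at 6 weeks against uninduced hearts. Without control replicate 3, 9 and 32 male members at 3 and 6 weeks and 4, 34 and 30 female members at 1, 3 and 6 weeks were called. Counts at male 3 weeks were 12 without control replicate 4, 17 without 3-week replicate 1 or 2, and 54 without 6-week replicate 4. The 1 call in uninduced males came without 1-week replicate 4 or 6-week replicate 4, that in uninduced females without control replicate 3 or uninduced replicate 4, and that in females at 6 weeks against 1 week without 6-week replicate 3. Male 6 weeks against uninduced hearts had 15 without uninduced replicate 4. Female 1 week had 4 without 1-week replicate 2 or 4 and 5 without control replicate 2, female 3 weeks 37 and 32 without 3-week replicates 2 and 3, and female 6 weeks 30 without 6-week replicate 2. Female 6 weeks against uninduced hearts had 9, 7, 44 and 15 without uninduced replicates 1 to 4 in turn, and 12, 9, 39 and 12 without 6-week replicates 1 to 4.

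The difference in log2 ratio of Rpl3l to Rpl3 from controls ranged over left-out libraries from -2.43 to -1.85, -1.85 to -1.39 and -2.15 to -1.70 in males and from -1.69 to -1.63, -1.72 to -1.58 and -1.72 to -1.53 in females. For uninduced hearts it ranged from -0.81 to -0.35 in males and -0.58 to -0.08 in females, and for 6 weeks against 1 week from -0.032 to 0.41 and -0.073 to 0.12. In that last comparison the sign reversed without male 1-week replicate 1 (-0.032), female 1-week replicate 4 (0.033), female 6-week replicate 2 (0.12) and female 6-week replicate 3 (0.0052).

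Same-numbered libraries did not deviate together (mean correlation 0.013 in males and 0.025 in females, lowest -0.13 and -0.34), so the replicate number only names a library. With it as a replicate block the members called in females at 6 weeks against uninduced hearts were 15, with no other count moved by over 1.5 times. Paired by replicate number, the male ratio difference at 1 week was -2.24. Rpl3l in males at 3 weeks did not pass with the block (adjusted p = 0.079). Members near 1 CPM, such as Rpl32l, rest on few reads at this depth.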
